A study of Mus musculus with 6 samples.

Results

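Epithelial adhesion, polarity and keratin genes were followed in whole pancreas of mouse embryos at embryonic stage E12.5 (days after conception). The 36 genes were chosen by name as components of epithelial junctions, polarity complexes, the keratin skeleton and surface proteases, together with regulators of epithelial identity. A gene was read from a probe set that the array annotation assigns to it alone, and where there were several, from the one with the highest mean over all 6 arrays. On this rule 35 of the 36 genes, of 18193 genes in all, could be read. The remaining one, Spp1, was not analysed here. There were 3 control pancreas samples, labelled wild type, and 3 samples labelled Hox6 null, all of strain Bl6 and each on an array of its own. The name Hox6 stands for the paralogous homeobox genes Hoxa6, Hoxb6 and Hoxc6. The deleted stretch of each gene, the number of embryos in a sample and the litters of the controls are not given in the labels. Values are log2 expression, so that a difference of 1 is a doubling. P-values weigh the difference between the groups against the spread among the 3 samples within each group, moderated over all genes. The labels call these samples biological replicates.

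At this stage the pancreatic bud is a branching epithelium within mesenchyme, and blood vessels and nerves reach it. Epithelial cells hold together through adherens junctions built on E-cadherin, through desmosomes anchored to keratin filaments, and through tight junctions made of claudins, occludin and their relatives. The Par, Crumbs and Scribble complexes separate the apical from the basolateral membrane, and the lumens of the future ducts open at the apical side. Grainyhead-like, Ets-family and ESRP regulators maintain this programme, whereas Snail and Zeb factors, which read the E-box letters CACCTG, repress it in mesenchymal cells.

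The promoters of these genes are shown first because their shared letters were not part of the choice of genes. RefSeq windows (GRCm38.p6, from 250 bases before to 50 after a transcription start) were at hand for 27 of the 36 genes. The 9 without one were Cdh1, Marveld3, St14, Ehf, Esrp1, Esrp2, Krt19, Grhl2 and Llgl2. Marveld3, St14, Ehf, Grhl2 and Llgl2 were among the genes with non-overlapping groups below. CACCTG, or CAGGTG as it reads on the other strand, lay in a window of 23 of the 27 genes with windows (85.2%). Over all 27025 genes with windows the share was 22.6%, and over the 14452 of them tested on the arrays it was 22.9%. The median GC content was 60.8% in the windows of the epithelial genes and 52.7% in all windows, and the part of base composition in the share was not tested. Another E-box, CAGCTG, was found in 2 of the 27 genes (7.41%), against 18.3% of all genes. The form AACCNGTT, on either strand, which grainyhead-like factors are known to read, was found in 4 of the 27 (14.8%: Cgn, Muc1, Prom1 and Rab25) and in 2.35% of all genes. Its perfect palindrome AACCGGTT was found in 0 of the 27 and in 0.174% of all genes. AACCGGTT is one form of AACCNGTT, and neither can share bases with the E-boxes searched. A match is a description of letters and says nothing of whether a factor is bound.

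The 120 bases before the start are printed 5′ to 3′ for 9 genes, with CACCTG or CAGGTG in capitals. They were picked to show the range from 1 match to 4 and to set Krt7, whose level hardly differed between the groups, beside genes with larger differences. The positions are chr9:21312334-21312453 for Ap1m2, chr5:134946935-134947054 for Cldn4, chr15:102004343-102004462 for Krt8, chr3:88548280-88548399 for Rab25 and chr7:29281978-29282097 for Spint2, all on the minus strand. On the plus strand they are chr11:69965301-69965420 for Cldn7, chr17:57062081-57062200 for Crb3, chr17:87635859-87635978 for Epcam and chr15:101412283-101412402 for Krt7.
Ap1m2: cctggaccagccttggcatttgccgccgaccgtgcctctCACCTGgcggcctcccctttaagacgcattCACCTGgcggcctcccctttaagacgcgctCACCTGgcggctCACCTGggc
Cldn4: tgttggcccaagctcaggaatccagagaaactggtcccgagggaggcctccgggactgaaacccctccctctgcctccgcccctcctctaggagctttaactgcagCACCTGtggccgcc
Cldn7: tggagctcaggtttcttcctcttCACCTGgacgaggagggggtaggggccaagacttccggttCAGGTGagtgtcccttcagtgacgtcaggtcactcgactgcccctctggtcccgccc
Crb3: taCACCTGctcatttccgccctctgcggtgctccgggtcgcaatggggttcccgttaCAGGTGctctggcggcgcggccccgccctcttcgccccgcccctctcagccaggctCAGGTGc
Epcam: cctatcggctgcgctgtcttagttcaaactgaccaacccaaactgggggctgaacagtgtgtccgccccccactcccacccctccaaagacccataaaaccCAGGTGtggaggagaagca
Krt7: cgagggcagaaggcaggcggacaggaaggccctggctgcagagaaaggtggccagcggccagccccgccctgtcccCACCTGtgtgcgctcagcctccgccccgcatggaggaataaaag
Krt8: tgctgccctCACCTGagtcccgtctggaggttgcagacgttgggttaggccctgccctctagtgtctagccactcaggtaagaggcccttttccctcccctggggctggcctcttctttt
Rab25: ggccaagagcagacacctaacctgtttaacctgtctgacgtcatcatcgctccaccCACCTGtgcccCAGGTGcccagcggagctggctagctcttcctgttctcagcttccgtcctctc
Spint2: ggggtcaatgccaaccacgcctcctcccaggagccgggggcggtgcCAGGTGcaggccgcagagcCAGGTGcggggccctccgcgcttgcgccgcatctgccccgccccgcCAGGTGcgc

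The differences between the groups covered overlapping ranges in genes with and without the E-box letters. The 22 genes with a probe set and the letters had a median difference of 0.60 and a range from -0.06 to 1.17. The 4 genes without them in these windows (Cftr, Cgn, Spint1 and Tmprss2) ranged from -0.01 to 0.80, with a median of 0.49. F11r, Krt7, Pard6b and Prom1 hold the letters and were among the genes with the smallest differences. Levels of the repressor genes Zeb1, Zeb2 and Snai2, chosen for their role and after their values were seen, were lower on average in null pancreas. Zeb1 read 9.51, 9.46 and 9.49 in controls and 8.77, 9.18 and 9.03 in null arrays (-0.49 ± 0.12, SE; adjusted p = 0.173, limma). Zeb2 stood at -0.23 ± 0.13 (SE) with non-overlapping arrays. Snai2, at -0.10 ± 0.14, showed no clear difference, and its null 3 level of 10.69 was above all controls. All of these belong to the mesenchyme list read below, in which all 14 genes were lower on average. The part of these repressors in the values of the epithelial genes was not tested.

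Arrays of the null group were less alike than those of the control group, which bears on every value below. Pearson correlations over all probe sets were 0.994 to 0.995 among controls and 0.980 to 0.987 among null arrays. Marker genes in this paragraph were named for their role after their values were seen. Null 3 stood near the controls for the epithelial genes, and it alone had a Sox2 level of 5.40, against 2.54 to 3.12 in the other 5 arrays. Barx1, a gene of stomach mesenchyme, read 10.70 in null 3 and 9.30 to 10.02 elsewhere, and the neuronal tubulin gene Tubb3 read 8.17 against 5.81 to 6.62. The other measured genes of the gastric and neural marker lists read below were mixed in null 3. Tff2 (4.91), Gkn1 (2.71) and Foxd3 (4.67) were at their lowest of all arrays there. Tff1 (6.29), Stmn2 (7.91) and Ret (6.17) lay within the control range, and Ctse (9.10), Elavl4 (6.55) and Sox10 (7.08) lay above all controls. The part of neighbouring tissue in the null 3 values was not tested. In control 2 the liver gene Alb read 10.60, against 6.44 to 8.02 in the others. Over the 6 arrays the pancreatic factor genes Pdx1 and Nkx6-1 read 8.24 to 9.97 and 8.36 to 9.85. The intestinal gene Cdx2 read 4.18 to 5.004, on a probe set whose level cannot be set against theirs. Of the targeted genes, Hoxb6 differed by -0.42 with overlapping arrays and the 3 probe sets of Hoxc6 by 0.13, 0.47 and 0.73. The Hoxc6 probe set at 0.73 was higher in every null array than in any control, and Hoxb6 in null 3 (8.91) lay within the control range. Whether these probe sets lie in the removed parts is not known, so they do not check the genotype of any array. Hoxa6 was not analysed here.

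Most of the 35 genes read above the controls in both null 1 and null 2, while null 3 lay close to the controls. Of the 35 genes 31 had a positive mean difference (88.6%, against 56% of all genes), and the median difference was 0.58, against 0.03 over all genes. Relative to the control mean, the median of the 35 genes was 0.94 in null 1, 0.81 in null 2 and 0.04 in null 3, and the single control arrays lay at 0.07, -0.04 and -0.02. Null 1 was above all 3 controls for 32 of the 35 genes, null 2 for 29 and null 3 for 14. Over all genes these shares were 44%, 38.2% and 30.6%. In whole tissue, a larger share of epithelial cells and more RNA per epithelial cell cannot be told apart.

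**Figure D1:**
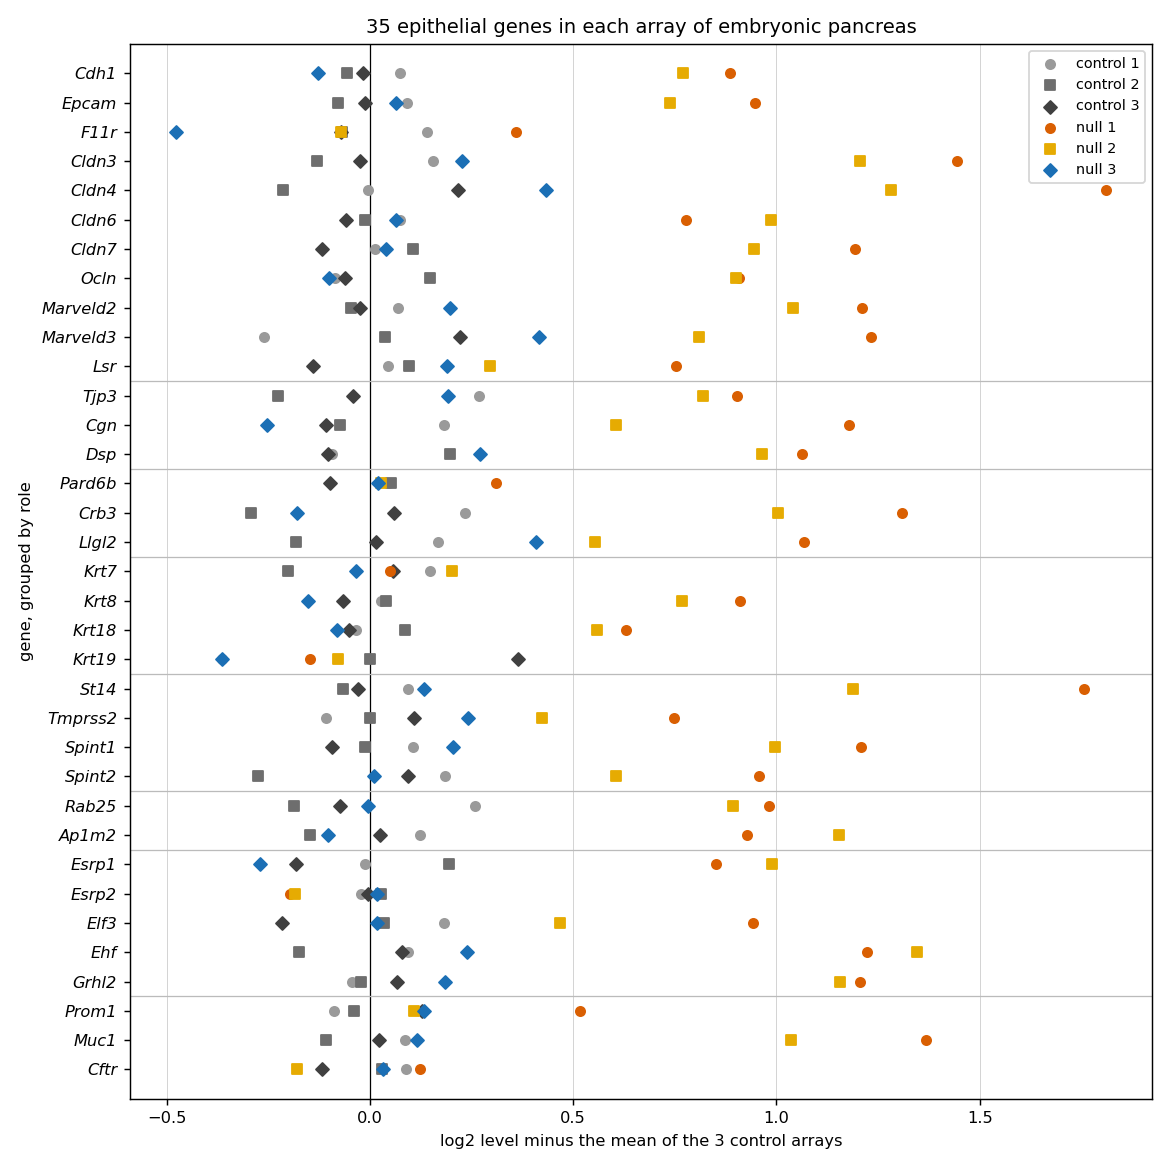
Log2 level minus the mean of the 3 control arrays (horizontal axis) for each of the 35 genes (vertical axis, grouped by role), with 1 symbol per array. Null 1 and null 2 lie to the right of the controls for most genes, and null 3 lies among or near the controls. F11r, Pard6b, Krt7, Krt19, Esrp2 and Cftr show little shift of the null mean. Single null arrays can still lie apart, as for F11r at 0.36 in null 1 and -0.48 in null 3.

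None of the 35 genes passed the test over all genes (limma with Benjamini-Hochberg adjustment, threshold 0.05), which called 0.0715% of all genes (0.0055% higher and 0.066% lower). The smallest adjusted p among them was 0.186, for Marveld3. At an unadjusted p under 0.05 there were 17 of the 35, all with positive differences, where 8.73% of all genes were higher at that level. All null arrays lay above all control arrays for 13 of the 35 genes (37.1%), against 12.2% of all genes, and below them for 0, against 11.7% of all genes. The 13 were Cldn3, Cldn4, Marveld2, Marveld3, Lsr, Dsp, Llgl2, St14, Tmprss2, Spint1, Ehf, Grhl2 and Muc1. The count depends on the probe set read. Averaging the probe sets of each gene gave 10 of 35, all higher, against 23.5% of all genes in either direction. The spread among null arrays was wide: the median SD of the 35 genes was 0.48 in null and 0.12 in control arrays, against 0.18 and 0.11 over all genes.

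The calls turned on null 3. Without it, 26 of the 35 genes (74.3%) passed, all of them higher, where 8.44% of all genes passed and 4.42% passed as higher. The median difference was then 0.88. Leaving out any of the other 5 arrays gave 0 of 35. Null 3 was the null array nearest the controls for these genes, at a median of 0.04 against 0.94 and 0.81 in the others. Its omission removes the disagreeing array and its spread (Cdh1 SE 0.26 with it, 0.10 without). Singling out null 3 thus rests on the same values that are tested. Counts and adjusted p-values without it, here and below, show only how far the calls depend on this array. The 9 genes that did not pass without null 3 were F11r, Lsr, Pard6b, Krt7, Krt19, Esrp2, Elf3, Prom1 and Cftr.

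**Figure D2:**
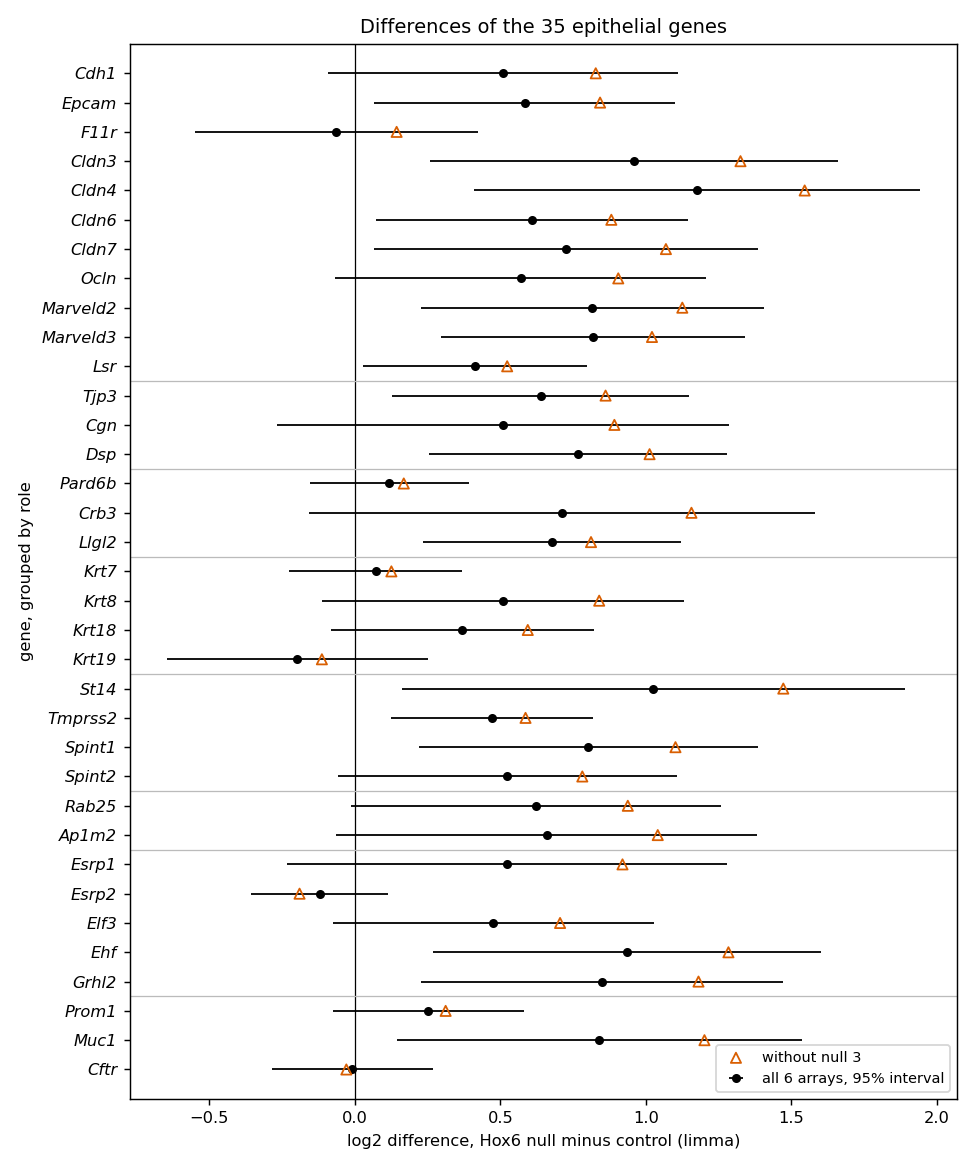
Log2 difference, Hox6 null minus control, from limma for each gene. Black points and bars give the value and the 95% interval from all 6 arrays, and open triangles give the value without null 3. Intervals of 17 genes lie above 0 before adjustment, and the triangles lie farther right for the genes with large differences.

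Among adhesion and junction membrane proteins 10 of 11 genes had a positive difference, with a median of 0.61, and 0 passed. Epcam, an adhesion molecule of simple epithelia, read 10.51, 10.34 and 10.41 in controls and 11.37, 11.16 and 10.48 in null arrays. Null 1 and null 2 were above every control and null 3 was within the control range. Its difference was 0.58 ± 0.22 (SE, adjusted p = 0.263), or 0.84 without null 3 (adjusted p = 0.0136). Cdh1, which encodes E-cadherin, had levels of 9.70, 9.57 and 9.61 in controls and 10.51, 10.40 and 9.50 in null arrays, so that null 3 was below every control. Its difference was 0.51 ± 0.26 (SE), a 1.42-fold mean change.

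The claudin genes, whose proteins form the tight junction strands, included the largest differences of this role. Cldn4, a claudin that limits paracellular ion flow, read 6.25, 6.04 and 6.47 in controls and 8.07, 7.54 and 6.69 in null arrays. All null arrays were above all controls, and the difference of 1.17 ± 0.33 (SE), or 2.26-fold, was the largest of the 35 genes (adjusted p = 0.191; 1.55 without null 3, adjusted p = 0.0118). Cldn6, a claudin of embryonic epithelia, read 10.55, 10.46 and 10.41 in controls and 11.25, 11.46 and 10.54 in null arrays. Here null 2 was the highest array and null 3 lay within the controls, for a difference of 0.61 ± 0.23 (SE). Cldn3 and Cldn7 stood at 0.96 and 0.73. All 4 probe sets of Cldn3 gave positive differences, from 0.79 to 1.01, and those at 0.79 and 0.965 had overlapping arrays.

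The Marvel-domain proteins sit at tight junctions, occludin along the strands and tricellulin (Marveld2) where 3 cells meet. Marveld3 read 5.93, 6.23 and 6.41 in controls and 7.42, 7.0002 and 6.61 in null arrays, with no overlap. Its difference was 0.82 ± 0.22 (SE). The dimmer probe sets of Marveld3 gave 0.998 and 0.33, both with overlapping arrays. Marveld2 stood at 0.82 ± 0.25 (SE) without overlap, and Ocln at 0.57 ± 0.27 with null 3 at 6.44, below all controls. Lsr, a protein that recruits tricellulin, differed by 0.41 ± 0.16 (SE) without overlap. Its second, dim probe set gave 0.10 with overlapping arrays, and the mean of both gave 0.25. Lsr did not pass without null 3 either (adjusted p = 0.0933).

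F11r, which encodes the junctional adhesion molecule JAM-A, was the exception in this role. It read 7.98, 7.77 and 7.77 in controls and 8.20, 7.77 and 7.37 in null arrays. Null 1 was the highest array and null 3 the lowest. The difference was -0.06 ± 0.21 (SE), with a 95% interval from -0.55 to 0.42. Its other probe set, at a low level, gave 0.06.

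**Figure D3:**
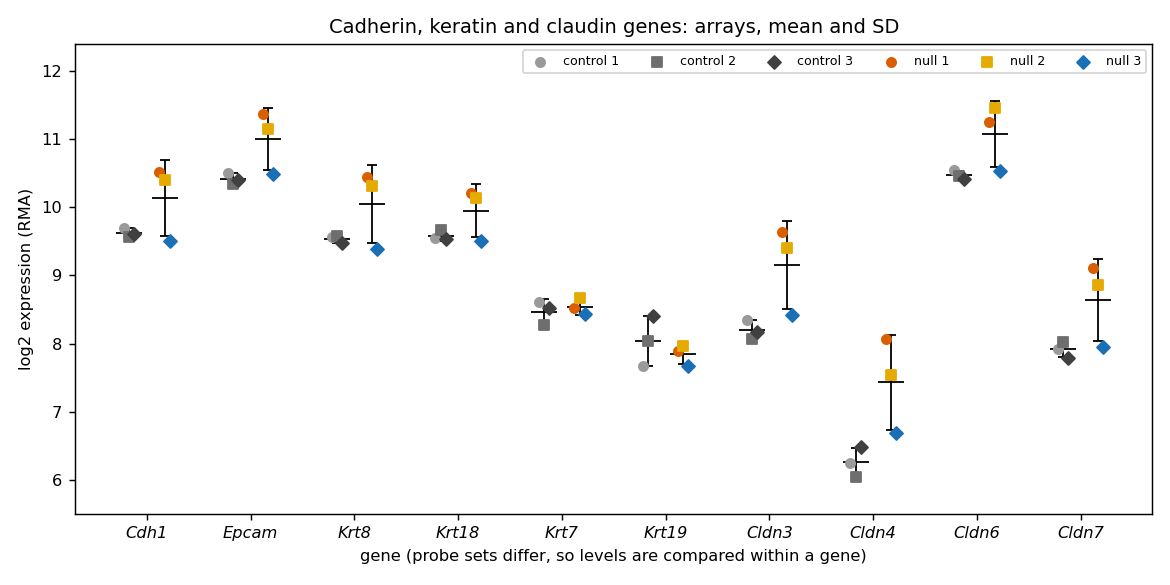
Log2 expression of E-cadherin, Epcam, keratin and claudin genes in each array, with the mean and SD of each group as black bars (controls left, null right). Null 1 and null 2 are raised for Cdh1, Epcam, Krt8, Krt18 and the claudins with null 3 beside the controls, and the groups overlap for Krt7 and Krt19.

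All 3 junction plaque and scaffold genes had positive differences, with a median of 0.64, and 0 passed. Dsp, which encodes desmoplakin, the link from desmosomes to keratin filaments, read 9.31, 9.60 and 9.30 in controls and 10.47, 10.37 and 9.68 in null arrays. Every null array was above every control, although null 3 exceeded control 2 by little. The difference was 0.77 ± 0.22 (SE, adjusted p = 0.195), and its other 2 probe sets gave 0.38 and 0.85. The one at 0.38 had overlapping arrays, with null 3 at 7.94, below all controls. The one at 0.85 did not overlap. Tjp3, the tight junction scaffold ZO-3, read 6.47, 5.98 and 6.16 in controls and 7.11, 7.02 and 6.40 in null arrays, for a difference of 0.64 ± 0.22 (SE). Null 3 was below control 1. Cgn, which encodes cingulin, a link from tight junctions to the actomyosin belt, read 7.34, 7.08 and 7.05 in controls and 8.34, 7.76 and 6.91 in null arrays. Null 1 and null 2 were above all controls and null 3 was below them, so that the mean difference of 0.51 ± 0.33 (SE) had an interval from -0.27 to 1.29.

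All 3 polarity genes had positive differences, with a median of 0.68, and 0 passed. Crb3, the Crumbs protein of the apical membrane, read 8.12, 7.59 and 7.94 in controls and 9.19, 8.88 and 7.70 in null arrays. Its difference of 0.71 ± 0.37 (SE) had the largest standard error of the 35 genes, with null 3 inside the control range. All 3 of its probe sets were higher on average, by 0.71 to 0.91. Llgl2, a basolateral polarity protein, read 6.72, 6.37 and 6.57 in controls and 7.62, 7.11 and 6.96 in null arrays. These did not overlap, for a difference of 0.68 ± 0.19 (SE). Pard6b, a partner of atypical protein kinase C in the Par complex, read 7.98, 7.98 and 7.83 in controls and 8.24, 7.96 and 7.95 in null arrays. Only null 1 was above the controls, and the difference was 0.12 ± 0.12 (SE), with an interval from -0.16 to 0.39. Its second probe set gave 0.04 (0.0406).

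Of the 4 keratin genes 3 had positive differences, with a median of 0.22, and 0 passed. Krt8 and Krt18 encode obligate partners in the filaments of simple epithelia. Krt8 read 9.57, 9.58 and 9.47 in controls and 10.45, 10.31 and 9.39 in null arrays, a difference of 0.51 ± 0.26 (SE), with its other 2 probe sets at 0.55 and 0.62. Krt18 read 9.55, 9.67 and 9.53 in controls and 10.21, 10.14 and 9.50 in null arrays, a difference of 0.37 ± 0.19 (SE). For both, null 1 and null 2 were above all controls and null 3 was below them. Both had an adjusted p of 0.365 and passed without null 3 (adjusted p of 0.0115 and 0.0233).

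The duct keratins Krt7 and Krt19 had smaller mean differences, with overlapping groups. Krt7 read 8.62, 8.27 and 8.53 in controls and 8.52, 8.67 and 8.43 in null arrays, with the groups overlapping and a difference of 0.07 ± 0.13 (SE). Krt19 read 7.68, 8.04 and 8.40 in controls and 7.89, 7.96 and 7.67 in null arrays. Its control arrays covered a wider range than its null arrays, and the difference was -0.20 ± 0.19 (SE). The 95% intervals were -0.23 to 0.37 for Krt7 and -0.64 to 0.25 for Krt19. Whether the pairs of keratins differ in their response was not tested. Mesothelium, which also makes keratins, was represented by 8 marker genes, of which 7 were lower on average. Their median relative to the control mean was -0.94, -0.84 and -0.34 in null 1, 2 and 3, and their mean level was 6.71 to 6.89 in controls and 5.78 to 6.26 in null arrays. The part of mesothelium in the keratin values was not tested.

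All 4 genes of surface proteases and their inhibitors had positive differences, with a median of 0.66, and 0 passed. St14 encodes matriptase, a membrane serine protease. It read 7.60, 7.44 and 7.48 in controls and 9.26, 8.69 and 7.64 in null arrays, without overlap. The difference was 1.03 ± 0.37 (SE), or 2.04-fold, and null 1 exceeded null 3 by the largest amount of any of the 35 genes (1.62). Its inhibitor gene Spint1 read 8.61, 8.50 and 8.41 in controls and 9.71, 9.50 and 8.71 in null arrays, a difference of 0.80 ± 0.25 (SE) without overlap. Spint2, the related inhibitor, read 9.94, 9.48 and 9.85 in controls and 10.72, 10.37 and 9.77 in null arrays. Null 3 was within the control range, for a difference of 0.52 ± 0.25 (SE). Tmprss2, another membrane serine protease, read 8.56, 8.67 and 8.78 in controls and 9.42, 9.09 and 8.91 in null arrays. The groups did not overlap and the difference was 0.47 ± 0.15 (SE). Of its 4 probe sets 3 were positive, and the dimmest gave -0.003 (-0.00283).

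Both genes of polarized trafficking were higher on average. Rab25, a GTPase of apical recycling endosomes, read 7.58, 7.13 and 7.25 in controls and 8.30, 8.21 and 7.32 in null arrays, a difference of 0.62 ± 0.27 (SE). Ap1m2, the epithelial subunit of the clathrin adaptor that sorts cargo to the basolateral membrane, read 6.62, 6.35 and 6.52 in controls and 7.43, 7.65 and 6.39 in null arrays, a difference of 0.66 ± 0.31 (SE). In both genes null 3 was within the control range, and both passed without it (adjusted p of 0.0203 and 0.0115).

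Regulators of epithelial identity had a median difference of 0.52, with 4 of 5 positive and 0 past the threshold. Grhl2, a grainyhead-like activator of junction genes, read 6.47, 6.49 and 6.58 in controls and 7.72, 7.67 and 6.70 in null arrays. The groups did not overlap, and the difference was 0.85 ± 0.26 (SE). All 4 of its probe sets were positive, from 0.58 to 0.85. Without null 3 its adjusted p of 0.00771 was the smallest of the 35 genes. Ehf, an Ets-family factor of epithelia, read 6.16, 5.89 and 6.15 in controls and 7.29, 7.41 and 6.30 in null arrays, a difference of 0.93 ± 0.28 (SE) without overlap. Its 3 dimmer probe sets all overlapped, at 0.67, 0.51 and -0.10, and the mean over its probe sets differed by 0.50. Elf3, its relative, stood at 0.48 ± 0.23 (SE) with overlapping arrays.

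The splicing regulators Esrp1 and Esrp2 gave different values. Esrp1 read 7.18, 7.39 and 7.01 in controls and 8.04, 8.18 and 6.92 in null arrays, with null 3 below all controls and a difference of 0.52 ± 0.32 (SE). Esrp2 read 8.79, 8.84 and 8.81 in controls and 8.62, 8.63 and 8.83 in null arrays, where null 1 and null 2 were the low ones. The difference was -0.12 ± 0.10 (SE). Its second probe set gave 0.57, so the direction of Esrp2 depends on the probe set and is uncertain.

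Of the apical and luminal genes, Muc1, a mucin of the apical surface, read 6.52, 6.33 and 6.46 in controls and 7.80, 7.47 and 6.55 in null arrays. The null arrays were all above the controls, null 3 narrowly, and the difference was 0.84 ± 0.30 (SE). Prom1, which encodes prominin-1 of apical membrane protrusions, read 8.94, 8.99 and 9.16 in controls and 9.54, 9.13 and 9.16 in null arrays. Null 1 alone was clearly above the controls, for a difference of 0.25 ± 0.14 (SE). The chloride channel gene Cftr read 2.64, 2.58 and 2.43 in controls and 2.67, 2.37 and 2.58 in null arrays. These are values near the floor of the array scale, and its difference of -0.01 ± 0.12 (SE) carries little weight.

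**Figure D4:**
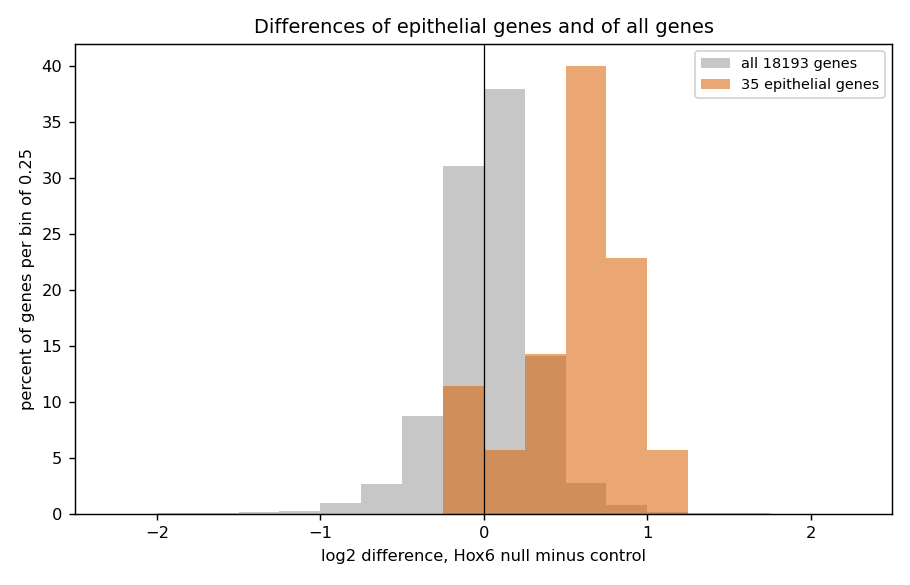
Percent of genes in each bin of 0.25 of the log2 difference, Hox6 null minus control, for all 18193 genes and for the 35 epithelial genes. All genes centre near 0 (median 0.03), while the epithelial genes centre at 0.58 with 4 genes below 0.

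Other genes of epithelial junctions and polarity, from a separate list of 58 of which 55 were measured, were also positive for the most part. Of these 44 were positive (80%, against 56% of all genes) and 11 negative, with a median of 0.26, and 0 passed. Arrays did not overlap for 17 higher genes (30.9%, against 12.2% of all genes) and 1 lower one (1.82%, against 11.7%). Without null 3, 18 of the 55 passed, where 8.44% of all genes did. The medians relative to the control mean were 0.40, 0.26 and 0.05 in null 1, 2 and 3. Nectin4, an immunoglobulin-like adhesion molecule, read 4.55, 4.70 and 4.55 in controls and 5.35, 5.34 and 5.40 in null arrays. Here null 3 was as high as the others, and the difference was 0.77 ± 0.09 (SE, adjusted p = 0.0619). Plekha7, an adherens junction protein, read 7.42, 7.48 and 7.57 in controls and 8.07, 8.37 and 8.05 in null arrays, again with null 3 at the level of the other null arrays (0.68 ± 0.12, SE). Cldn8 stood at 0.58 ± 0.12 (SE) at low levels of 3.16 to 4.02. Myo5b, the motor of Rab25 and Rab11 vesicles, stood at 1.14 ± 0.30 (SE), with null 3 at 6.91 against 8.09 and 7.97. The lower gene was Llgl1, the relative of Llgl2, named after its values were seen. It read 9.35, 9.38 and 9.36 in controls and 9.10, 8.99 and 9.25 in null arrays (-0.25 ± 0.10, SE).

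Marker lists of pancreatic epithelium and of other cell types were read in the same arrays. The 8 measured pancreatic progenitor genes were all positive, with medians of 1.21, 0.92 and 0.08 in null 1, 2 and 3. Pdx1 stood at 1.08 ± 0.29 (SE) and Nkx6-1 at 0.92 ± 0.25. The 9 endocrine genes were also all positive (0.79, 0.85 and 0.06). Intestinal epithelial markers had medians of 0.26, 0.20 and -0.06 in the null arrays. Gastric markers, a list that includes Barx1 of stomach mesenchyme, had 0.39, 0.09 and 0.13. Of these 13 genes 0 passed. By contrast, all 14 mesenchyme genes were negative (medians -0.52, -0.25 and -0.27), as were all 8 endothelial genes (-0.85, -0.49 and -0.27) and all 8 macrophage genes (-1.04, -0.69 and -0.52). The 5 erythroid genes were also negative (-0.45, -1.17 and -0.235). Over all 18193 genes 56% had a positive difference and 8013 genes a negative one. The medians of the mesenchyme, endothelial, macrophage and erythroid lists were below the control mean in null 3 too, whereas the median of the epithelial genes there was 0.04. The mean level of the mesenchyme genes was 9.85 to 9.94 in controls and 9.26 to 9.43 in null arrays. Of these 4 lists the endothelial receptor gene Tek, the macrophage gene Adgre1 and the erythroid gene Hemgn passed, all lower. Each had an adjusted p of 0.0417 (limma), and 0.066% of all genes passed as lower. Neural crest, glial and neuronal genes were positive for 5 of 6 (0.34, 0.28 and 0.15), and liver genes for 3 of 5 (0.35, 0.26 and -0.52). In the single control arrays the liver medians were -0.21, 1.20 and -0.98, a wider range than in the null arrays. Control medians were 0.19, -0.07 and -0.11 for the intestinal list and 0.13, -0.01 and -0.13 for the gastric list. For the endocrine list they were 0.26, -0.29 and 0.03. The part of other cell types in the values of the epithelial genes was not tested.

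**Figure D5:**
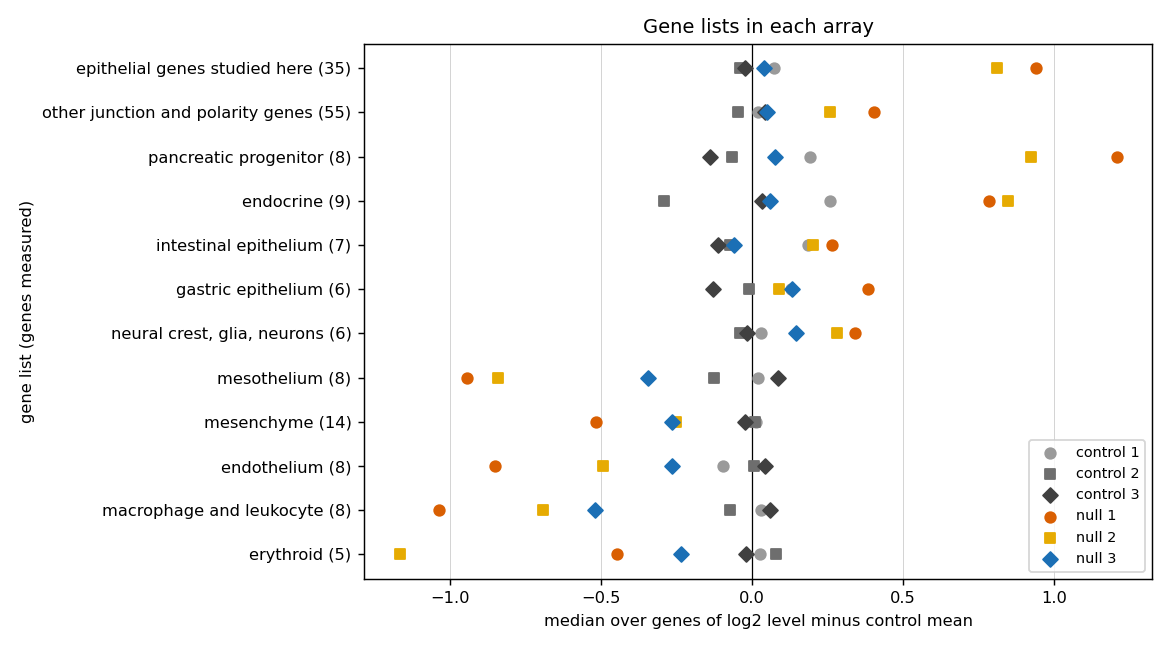
Median over each gene list of the log2 level minus the control mean (horizontal axis), with 1 symbol per array and the number of genes measured in parentheses. For the epithelial genes null 1 and null 2 lie at 0.94 and 0.81 and null 3 at 0.04, while for mesenchyme, endothelium, macrophages and erythroid cells all 3 null arrays lie below the controls.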

How the data were processed

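Total RNA (10 ng per sample) had been amplified and biotin-labelled for Affymetrix arrays, per the labels' protocols. The authors deposited log2 values for 45101 probe sets. The submitters' processing notes name RMA, affy and limma, without versions. RMA values are relative to the other arrays and have a floor, so differences of dim probe sets are understated, and levels of different probe sets cannot be compared. Array number, 3 per group, limits the precision; a per-gene exact permutation test cannot go below p = 0.1.

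Of all probe sets, 34945 had 1 gene symbol in the platform annotation, 932 had several, 9160 had none and 64 were array controls. One probe set per gene, that of highest mean, gave 18193 genes. Genotype was fitted with limma 3.58.1 (lmFit, eBayes) in R 4.3.3, two-sided, with Benjamini-Hochberg adjustment over all genes and a threshold of 0.05. The script was tested on simulated data. Errors of differences are moderated standard errors.

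The epithelial genes and the other lists were chosen with earlier results of these data known, so lists are described by counts and medians, with no test. Each list gene with a probe set is counted. Every epithelial gene measured is named. Values in all arrays are given, per role, for the 2 genes of highest mean level, the 2 of smallest p and any gene whose sign opposes the median, and also for Cdh1, Krt7 and St14, chosen after their values were seen. From other lists at most 4 genes of smallest p are named, unless stated. Promoter sequences are from RefSeq (GRCm38.p6). Alternatives covered a filter on dim genes, normalization, variance prior, array weights, a replicate block, the choice of probe set and each array left out.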

Additional observations from a re-analysis of the deposited data

How the results depend on the processing

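The median difference of the epithelial genes stayed positive in all alternatives run, from 0.40 without null 1 to 0.88 without null 3, and 0 of these genes passed except without null 3 (a range of 0 to 26 with 1 array left out). The number of them with non-overlapping arrays was 13 with all arrays and ranged from 13 to 29 with 1 array left out. It fell to 10 when a gene's probe sets were averaged, where 23.5% of all genes did not overlap. With repeated quantile normalization it was 15. Fewer arrays overlap less by construction: the share of all genes was 23.9% with all arrays, 30.7% to 32.9% without any array other than null 3, and 47.5% without null 3. The 13 of 35 without null 1 (37.1%) is near its 32.9%, and the 29 without null 3 are 28 higher and 1 lower. Over all genes 13 passed. This became 1 with repeated quantile normalization, 8 with arrays centred on their medians, 74 with an intensity trend and robust prior, 155 with array weights and 1 with all probe sets tested, and it ranged from 0 to 1536 with 1 array left out. With the replicate number as a block 0 genes passed. Same-numbered arrays had correlations of 0.159, -0.0376 and 0.1 between their deviations, so the numbers are not taken to pair the samples. When a gene's probe sets were averaged, Esrp2 turned to 0.22 and F11r to 0.00052, and Ehf and Lsr moved to 0.50 and 0.25. With 1 array left out, F11r ranged from -0.27 to 0.14, Cftr from -0.074 to 0.077 and Krt7 from -0.030 to 0.145. The filter on dim genes left 30 of the 35 genes. The cause of these changes was not tested.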
